A study of Mus musculus with 18 samples.

Results

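A set of 10 genes of red pulp macrophage identity and iron handling were followed in monocytes sorted from mouse spleens: Spic, Vcam1, Cd163, Hmox1, Blvrb, Slc40a1, Slc11a1, Fth1, Ftl1 and Tfrc. They were taken by gene symbol from the count table, in which all 10 were found among 55416 genes, and all 10 passed the filter on low counts that left 17040 genes for testing. Messenger RNA was sequenced from cells collected on day 3, in 18 libraries from 6 groups of 3 mice: C57BL/6 wild-type (WT) mice, Dectin-1 knockout mice and FcgRIIb knockout mice, each given phosphate-buffered saline (PBS) or intravenous immunoglobulin (IVIg, pooled immunoglobulin G). Dectin-1 is the beta-glucan receptor encoded by Clec7a, and FcgRIIb is the inhibitory Fc gamma receptor encoded by Fcgr2b. The labels give no strain background for the knockout animals and no dose of IVIg, and the sort gate is not described in them. The study asked whether Dectin-1 and FcgRIIb shape the response of monocytes to IVIg, and these genes were followed here for their part in iron handling.

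Red pulp macrophages of the spleen engulf aged red blood cells and return their iron to the blood, and they can arise from monocytes. Heme taken from the red cell is opened by heme oxygenase, the biliverdin that results is reduced to bilirubin, and the released iron is stored in ferritin or exported through ferroportin. Heme also induces the transcription factor Spi-C, encoded by Spic, which drives the red pulp macrophage program, Vcam1 included. When a cell is short of iron, iron regulatory proteins bind hairpins in messenger RNA, block translation where the hairpin lies in a 5′ untranslated region (UTR), and protect the transferrin receptor message through hairpins in its 3′ UTR. Counts of RNA therefore do not report this layer of control for ferritin and ferroportin.

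The hairpins are shown because they divide the genes by how iron acts on them. They were searched for on the sense strand of the first-numbered transcript of each gene (GENCODE M21, GRCm38) as a bulged C, a stem of 5 paired bases that may hold G-U pairs, and a loop of CAGTG followed by a base other than G. Each sequence runs 5′ to 3′ over 30 bases, with the loop in capitals.
Fth1, 5′ UTR, chr19:9982732-9982761, plus strand: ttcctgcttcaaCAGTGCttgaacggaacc
Ftl1, 5′ UTR, chr7:45459778-45459807, minus strand: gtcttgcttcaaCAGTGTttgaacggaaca
Slc40a1, 5′ UTR, chr1:45925464-45925493, minus strand: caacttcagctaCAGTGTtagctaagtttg
Tfrc, 3′ UTR, chr16:32631219-32631248, plus strand: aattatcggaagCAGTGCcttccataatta
Tfrc, 3′ UTR, chr16:32631598-32631627, plus strand: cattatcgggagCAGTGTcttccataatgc
Tfrc, 3′ UTR, chr16:32631663-32631692, plus strand: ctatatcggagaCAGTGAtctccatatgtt
Tfrc, 3′ UTR, chr16:32631710-32631739, plus strand: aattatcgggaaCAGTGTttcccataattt
These letters were found in 4 of the 10 genes. With every protein-coding transcript of a gene searched, they were found in 222 of 21877 genes (1.01%). That search was wider than the one of the 10 genes, so the shares are not alike. A match describes the letters only, and the search says nothing of binding in these cells.

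In the GRCm39 coordinates of the count table, the red pulp genes lie on separate chromosomes: Spic at chr10:88510634-88520877, Vcam1 at chr3:115903598-115923337 and Cd163 at chr6:124281615-124307486. Hmox1 lies at chr8:75820249-75827217 and Blvrb at chr7:27147403-27165569. Both metal transporters of the set are on chromosome 1, Slc40a1 at chr1:45947228-45965683 and Slc11a1 at chr1:74414354-74425221. The ferritin chains lie at chr19:9957962-9962462 (Fth1) and chr7:45107368-45109308 (Ftl1), and Tfrc at chr16:32427738-32451612. Counts cover the exons of each gene.

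Total counts lay between 16996494 and 48958909 in 17 libraries. FcgRIIb knockout PBS replicate 2 held 719494, so that 3 of its counts already equal 4.202 CPM (counts scaled to the same total in every library), and the edgeR fold changes of Fth1, Blvrb and Tfrc that use it are also given without it. Clec7a lay between 0.247 and 4.05 CPM in the 6 Dectin-1 knockout libraries and between 360 and 948 CPM in the other 12. Fcgr2b lay between 130 and 248 CPM in the 6 FcgRIIb knockout libraries and between 208 and 318 CPM in the other 12, so the counts of Fcgr2b overlapped between the genotypes and do not check the label: the groups called FcgRIIb knockout are the libraries so labelled. Markers of monocytes were abundant in every library, with a summed level of 23240 to 44709 CPM over 12 genes. No marker of that list was at 0 throughout the 17 deeper libraries. The summed level of 22 other red pulp macrophage genes was 2147 to 3155 CPM. Much of it came from Hpgd at 213 to 1373 CPM, Trf at 336 to 731 CPM, Cd68 at 299 to 539 CPM, Treml4 at 168 to 501 CPM and Adgre1, a surface receptor of macrophages that monocytes also carry, at 341 to 624 CPM. Of these, Cd68 is also among the 12 monocyte markers, and Treml4 is also in the list of non-classical monocyte markers. Cd5l, a secreted protein typical of red pulp macrophages, did not exceed 4.82 CPM, and the complement gene C1qb did not exceed 15.5 CPM. The summed level of 11 B cell and plasma cell markers was 659 to 2585 CPM and that of 9 dendritic cell markers 455 to 1107 CPM.

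Compared per length, as counts divided by exon length and then scaled alike (TPM), the genes spanned a wide range of levels. Ferritin light chain Ftl1 stood highest at 3317 ± 393 TPM (mean ± SD, n = 18), above ferritin heavy chain Fth1 at 864 ± 117 TPM in 18 of 18 libraries. Slc11a1, which encodes the phagosomal metal transporter Nramp1, and Hmox1, which encodes heme oxygenase 1, followed at 178 ± 41.8 and 177 ± 36.2 TPM and did not differ beyond their spread, with Slc11a1 higher in 9 of 18 libraries. C57BL/6 mice carry an allele of Slc11a1 known to impair the protein, which a transcript level does not show. Blvrb, encoding biliverdin reductase B, reached 24.4 ± 4.85 TPM, above Spic in 18 of 18 libraries. Spic itself stood at 6.60 ± 2.94 TPM and Cd163, the haptoglobin-haemoglobin receptor, at 4.998 ± 2.24 TPM, and their order held in 11 of 18 libraries. The adhesion molecule Vcam1 followed at 3.23 ± 1.63 TPM. Slc40a1, encoding the iron exporter ferroportin, stood at 2.63 ± 1.52 TPM and the transferrin receptor Tfrc at 2.38 ± 1.18 TPM, with Slc40a1 above Tfrc in 8 of 18 libraries.

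This order depends in part on the length used. The deposited exon length of Fth1 is 3469 bases, against 929 in its first-numbered GENCODE transcript, and dividing by the latter puts the mean level of Fth1 at 3224 TPM beside 4591 TPM for Ftl1. On that length Vcam1 stood at 8.25, Slc40a1 at 7.03 and Cd163 at 6.20 TPM, which places Cd163 below both, with Vcam1 still above Slc40a1, while Ftl1, Fth1, Slc11a1, Hmox1, Blvrb and Spic kept theirs. This length was chosen after the data were seen.

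**Figure D1:**
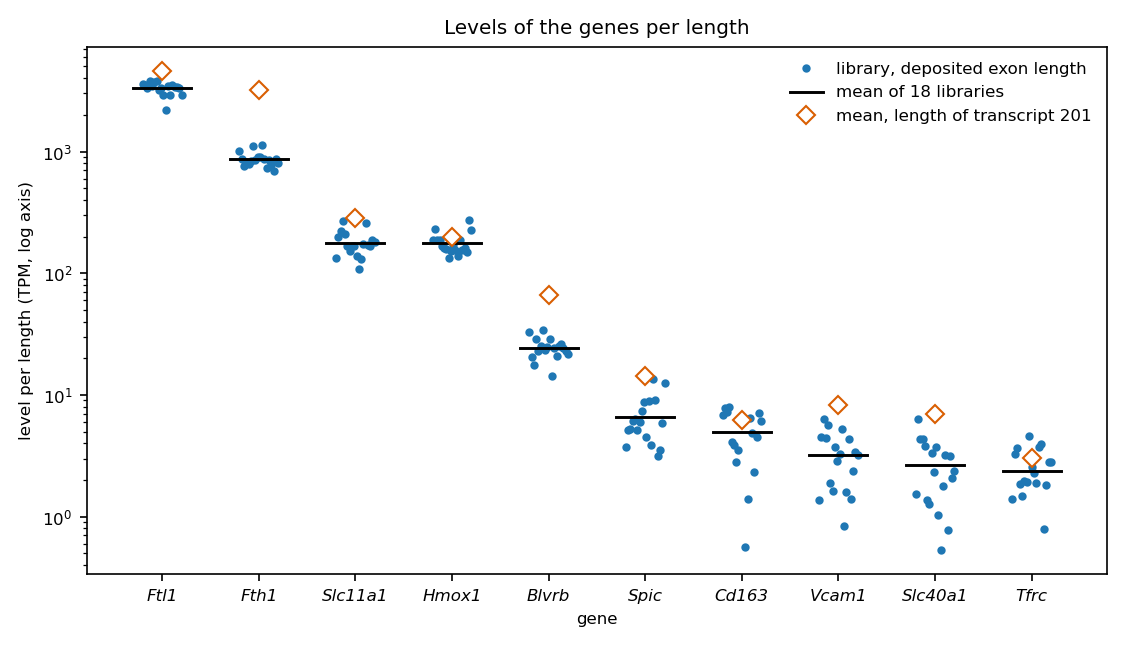
Level per length of the 10 genes in TPM on a log axis: each point is 1 library (18 per gene, except Tfrc, for which the library at 0 is not drawn), the bar is their mean on the deposited exon length, and the diamond is the mean on the length of the first-numbered GENCODE transcript. For the diamonds the scaling was left on the deposited lengths. Ftl1 and Fth1 stand above the rest, and the 5 genes from Spic to Tfrc share the lowest range.

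None of the 10 genes passed the test in any of 11 comparisons. The comparisons were IVIg against PBS in each genotype, each knockout against WT in each treatment, the 3 differences between genotypes in the IVIg effect, and the mean IVIg effect over the genotypes. A gene was called at an adjusted p under 0.05 by edgeR's quasi-likelihood test, with Benjamini-Hochberg adjustment over all 17040 genes, and the smallest adjusted p among the 110 tests of these genes was 0.508. The background was as sparse. The test called 0.00587% of all genes for IVIg in WT mice, 0% for IVIg in either knockout, 0.0411% for Dectin-1 knockout against WT under PBS, 0% for FcgRIIb knockout against WT under PBS, 0.0528% and 0.0117% for the same comparisons under IVIg, and 0% in the 4 comparisons of IVIg effects. At an unadjusted p under 0.05, 2 of the 110 tests passed by edgeR (1.82%), 1 by DESeq2 (0.909%) and 9 by limma voom (8.18%). Of all gene tests over the 11 comparisons, the share at that p was 4.06%, 2.83% and 7.82% in the same order, where DESeq2 keeps more low-count genes. By comparison, the edgeR background at that p was 2.51%, 3.27% and 3.19% of all genes for IVIg in WT, Dectin-1 knockout and FcgRIIb knockout mice. It was 4.03% and 9.64% for Dectin-1 and FcgRIIb knockout against WT under PBS, 3.46% and 5.45% for the same under IVIg, 3.74%, 2.86% and 4.17% for the differences in IVIg effect (Dectin-1 knockout minus WT, FcgRIIb knockout minus WT, and between the knockouts) and 2.31% for the mean IVIg effect. The 2 tests that passed by edgeR, Spic in Dectin-1 knockout against WT mice under IVIg and Fth1 in FcgRIIb knockout against WT mice under PBS, were each 1 of 10 genes in its comparison.

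Fold changes of the 10 genes lay between -0.99 and 1.04 on the log2 scale over the 110 tests, 69 above 0 and 41 below. The standard errors ran from 0.13 to 0.79 on that scale, smallest for Hmox1 and largest for Slc40a1, so a failed test is not evidence of equal levels. Over all 11 comparisons the 95% intervals reached from -2.19 to 2.10. The median fold change of the 10 genes was 0.15 for IVIg in WT mice, 0.05 in Dectin-1 knockout mice and 0.18 in FcgRIIb knockout mice, beside medians of all tested genes of 0.01, 0.02 and 0.01. For the knockouts against WT it was 0.24 and -0.06 under PBS and 0.11 and 0.24 under IVIg, for Dectin-1 and FcgRIIb in turn, beside medians of all genes of -0.02, -0.05, -0.02 and -0.02. These comparisons share samples and are not independent of each other.

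**Figure D2:**
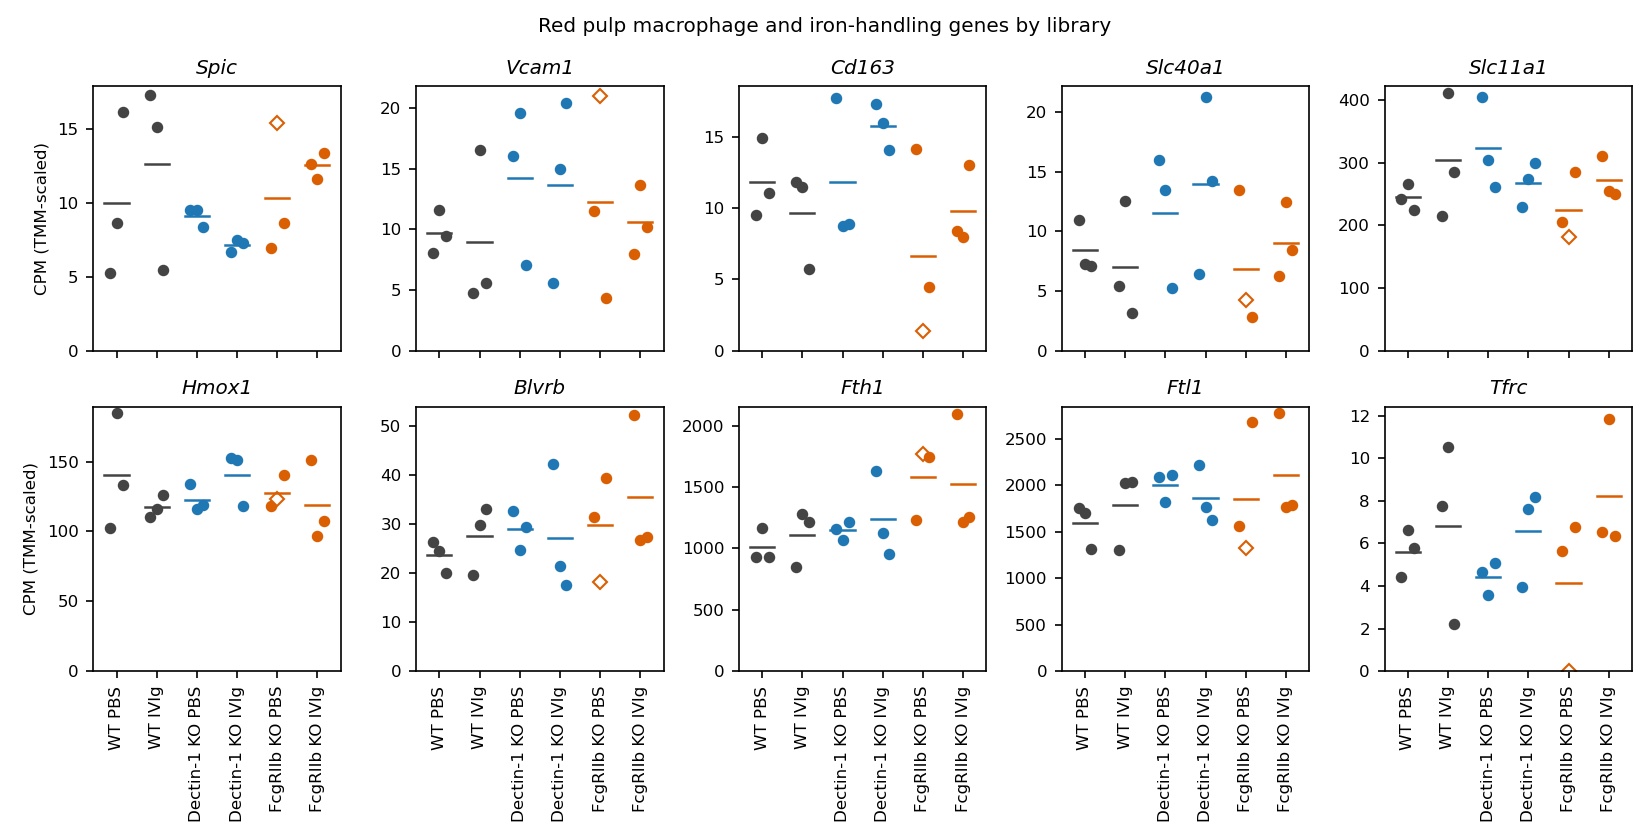
CPM of each gene in every library, by genotype (colour) and treatment: points are mice, bars are group means, and the open diamond is the shallow FcgRIIb knockout PBS library. Groups overlap in most panels, and Vcam1 and Slc40a1 spread widely within groups.

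The genes of red pulp identity came first. Spic was measured in WT PBS mice at 5.27, 8.63 and 16.2 CPM and in WT IVIg mice at 17.3, 15.1 and 5.48 CPM. In Dectin-1 knockout mice it was 9.51, 9.50 and 8.37 CPM with PBS and 6.68, 7.46 and 7.32 CPM with IVIg. The WT mice covered a range that held every Dectin-1 knockout value, while the Dectin-1 knockout mice lay close together, with the 3 IVIg values below the 3 PBS values. FcgRIIb knockout mice gave 6.92, 15.4 and 8.61 CPM with PBS, the second of these from 11 counts, and 12.7, 11.6 and 13.3 CPM with IVIg. Under IVIg, Spic in Dectin-1 knockout against WT mice had a log2 fold change of -0.81 ± 0.37 (SE, unadjusted p = 0.0426, adjusted p = 1 by edgeR), a comparison in which 3.46% of all genes had an unadjusted p under 0.05. The value was -1.18 without WT IVIg replicate 3, the mouse at 5.48 CPM, -0.52 without WT IVIg replicate 1, and -0.21 with limma voom. IVIg against PBS in Dectin-1 knockout mice gave -0.34 ± 0.39 (unadjusted p = 0.385, adjusted p = 1 by edgeR), where 4.43% of all genes were lower without overlap.

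Vcam1 lay at 8.08, 11.6 and 9.49 CPM in WT PBS mice and at 4.73, 16.5 and 5.57 CPM in WT IVIg mice. In Dectin-1 knockout mice it was 16.1, 19.6 and 7.07 CPM with PBS and 5.56, 15.0 and 20.4 CPM with IVIg. In FcgRIIb knockout mice it was 11.5, 21.01 and 4.32 CPM with PBS, the second from 15 counts, and 7.93, 13.6 and 10.2 CPM with IVIg. Every group but WT PBS and FcgRIIb knockout IVIg held both a low and a high mouse, and no pair of groups compared was free of overlap. The fold change with the smallest p for Vcam1 was again Dectin-1 knockout against WT under IVIg, at 0.67 ± 0.48 (log2, SE, unadjusted p = 0.179, adjusted p = 1 by edgeR). Single mice moved it from 0.28, without Dectin-1 knockout IVIg replicate 3, to 1.47, without WT IVIg replicate 2, with 0.37 and 0.40 without WT IVIg replicates 1 and 3.

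Cd163 was the gene of this group whose values separated under IVIg. They were 11.9, 11.5 and 5.72 CPM in WT mice, 17.3, 16.0 and 14.1 CPM in Dectin-1 knockout mice and 8.38, 7.97 and 13.0 CPM in FcgRIIb knockout mice. All 3 Dectin-1 knockout mice stood above all 3 WT mice, as did 2.52% of all genes. The log2 fold change was 0.69 ± 0.38 (unadjusted p = 0.0803, adjusted p = 1 by edgeR), and 0.41 without WT IVIg replicate 3. Under PBS the values were 9.53, 14.9 and 11.1 CPM in WT mice, 17.8, 8.76 and 8.93 CPM in Dectin-1 knockout mice, and 14.1, 1.401 and 4.44 CPM in FcgRIIb knockout mice, the 1.401 CPM being 1 count. Those groups overlapped. Cd163 lies on chromosome 6, 5.13 Mb from Clec7a in GRCm39. In the same IVIg comparison the summed level of 12 neutrophil markers was 846, 1735 and 321 CPM in Dectin-1 knockout mice and 221 to 321 CPM in WT mice. The Dectin-1 knockout mouse at 321 CPM thus lay at the top of the WT range. Of these markers 1, Retnlg, was called higher (log2 4.27, adjusted p = 0.0435 by edgeR). The part of neutrophils, or of the position near Clec7a, in the values of Cd163 was not tested. In a bulk sort, fewer cells of a type and less RNA per cell cannot be told apart.

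Beside Blvrb, Hmox1 varied less. It was measured at 102, 185 and 133 CPM in WT PBS mice and at 110, 116 and 126 CPM in WT IVIg mice. In Dectin-1 knockout mice it was 134, 116 and 119 CPM with PBS and 152, 152 and 118 CPM with IVIg. FcgRIIb knockout mice gave 118, 123 and 141 CPM with PBS and 152, 96.8 and 108 CPM with IVIg. Its coefficient of variation over the 17 deep libraries, 17.6%, was the lowest of the 10 genes, and the lowest and the highest of all 18 libraries differed 1.91-fold. The difference in IVIg effect between Dectin-1 knockout and WT mice was 0.45 ± 0.31 (log2, unadjusted p = 0.163, adjusted p = 0.999 by edgeR), and 0.19 without WT PBS replicate 2, the mouse at 185 CPM.

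Blvrb ranged from 17.6 to 52.3 CPM over the 18 libraries. Its highest values came from 1 FcgRIIb knockout IVIg mouse (52.3 CPM), 1 Dectin-1 knockout IVIg mouse (42.4 CPM) and 1 FcgRIIb knockout PBS mouse (39.5 CPM). For FcgRIIb knockout against WT under PBS the fold change was 0.52 ± 0.34 (log2, unadjusted p = 0.142, adjusted p = 0.580 by edgeR), and 0.33 without FcgRIIb knockout PBS replicate 3, the mouse at 39.5 CPM. Without the shallow FcgRIIb knockout PBS replicate 2 it was 0.58 ± 0.35 (unadjusted p = 0.113, adjusted p = 0.551 by edgeR).

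Among the iron transporters, Slc40a1 spread most. WT mice gave 10.9, 7.22 and 7.06 CPM with PBS and 5.39, 12.5 and 3.13 CPM with IVIg. Dectin-1 knockout mice gave 15.9, 13.4 and 5.21 CPM with PBS and 6.43, 21.2 and 14.2 CPM with IVIg. FcgRIIb knockout mice gave 13.5, 4.202 and 2.78 CPM with PBS, the second from 3 counts, and 6.21, 12.4 and 8.45 CPM with IVIg. The coefficient of variation over the 17 deep libraries was 51.5%, the highest of the 10 genes. The largest fold change of all 110 tests was that of Slc40a1 in Dectin-1 knockout against WT mice under IVIg, at 1.04 ± 0.51 (log2, unadjusted p = 0.0548, adjusted p = 1 by edgeR). The groups overlapped, and the value was 0.62 without Dectin-1 knockout IVIg replicate 2, 0.68 without WT IVIg replicate 3 and 1.77 without WT IVIg replicate 2.

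Slc11a1 lay between 182 and 411 CPM. The 3 WT IVIg mice gave 216, 411 and 286 CPM and the 3 Dectin-1 knockout PBS mice 405, 305 and 262 CPM, which held the 2 highest values. The difference in IVIg effect between Dectin-1 knockout and WT mice was -0.59 ± 0.33 (log2, unadjusted p = 0.0946, adjusted p = 0.999 by edgeR), and -0.31 without WT IVIg replicate 2, the mouse at 411 CPM. Tfrc, which takes up transferrin-bound iron, lay between 2.20 and 11.8 CPM in 17 libraries, and no read was counted in FcgRIIb knockout PBS replicate 2, where 3 counts equal 4.202 CPM. Its mean IVIg effect over the genotypes was 0.47 ± 0.26 (log2, unadjusted p = 0.0899, adjusted p = 0.99996 by edgeR), and 0.31 without WT IVIg replicate 2. Without FcgRIIb knockout PBS replicate 2 it was 0.45 ± 0.26 (unadjusted p = 0.104, adjusted p = 0.99994 by edgeR).

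**Figure D3:**
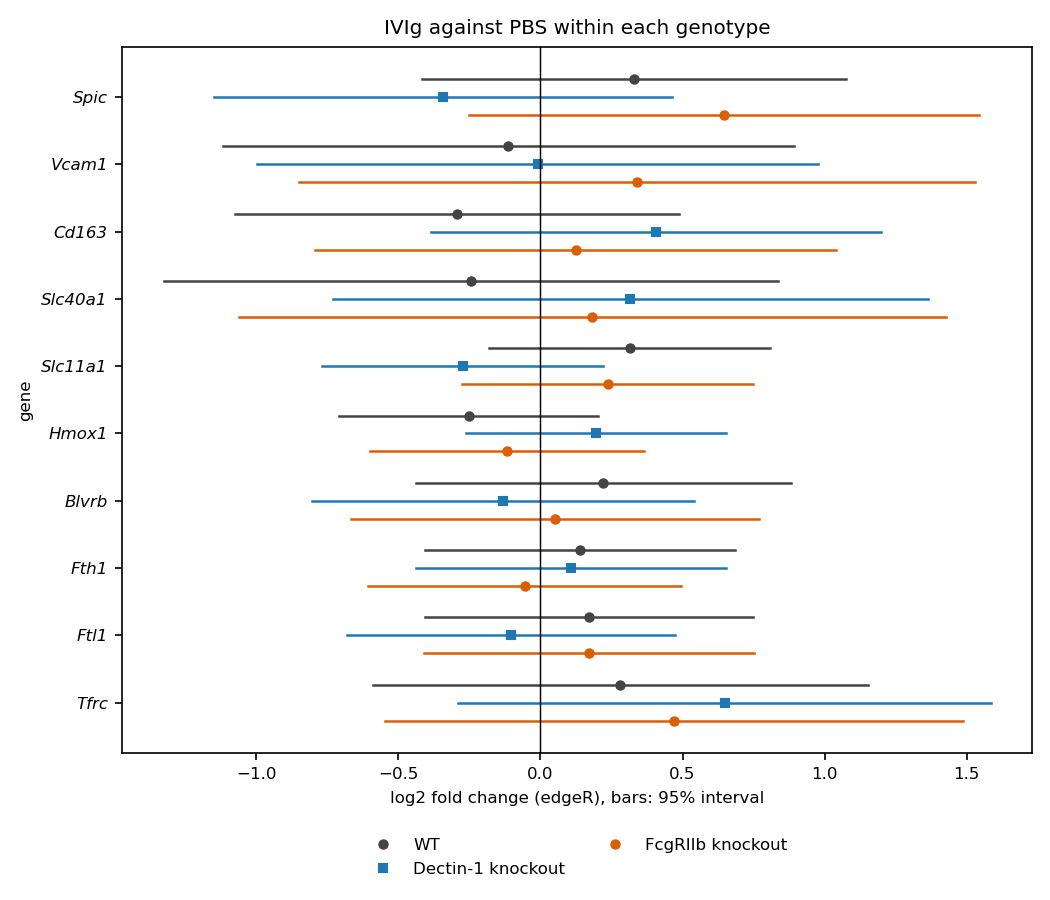
Log2 fold change of each gene for IVIg against PBS within each genotype, as the edgeR estimate (points) with its 95% interval (bars). Every interval drawn includes 0.

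The ferritin chains held the comparison with the smallest p. Fth1 was measured at 929, 1166 and 931 CPM in WT PBS mice and at 1233, 1770 and 1745 CPM in FcgRIIb knockout PBS mice, the 1770 CPM from the shallow library. All 3 knockout mice stood above all 3 WT mice, as did 3.59% of all genes in this comparison. The log2 fold change was 0.65 ± 0.26 (unadjusted p = 0.0238, adjusted p = 0.508 by edgeR), where 9.64% of all genes had an unadjusted p under 0.05. It was 0.56 without the shallow library (unadjusted p = 0.0535, adjusted p = 0.504 by edgeR) and 0.80 without FcgRIIb knockout PBS replicate 1 (adjusted p = 0.118 by edgeR), the smallest adjusted p of these genes under any setting tried. Under IVIg, FcgRIIb knockout mice gave 2093, 1214 and 1258 CPM and WT mice 847, 1276 and 1211 CPM, with a fold change of 0.45 ± 0.26 (log2, unadjusted p = 0.0992, adjusted p = 0.930 by edgeR) that was 0.14 without the mouse at 2093 CPM, FcgRIIb knockout IVIg replicate 1, and 0.29 without WT IVIg replicate 1. In Dectin-1 knockout mice Fth1 was 1155, 1071 and 1217 CPM with PBS and 1631, 1125 and 950 CPM with IVIg.

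Ftl1 was highest in the same FcgRIIb knockout mice as Blvrb, at 2773 CPM in IVIg replicate 1 and 2685 CPM in PBS replicate 3. Under PBS the WT mice gave 1751, 1705 and 1308 CPM and the Dectin-1 knockout mice 2087, 1819 and 2115 CPM. The knockout values lay above the WT values without overlap, as did 7.92% of all genes, with a log2 fold change of 0.34 ± 0.28 (unadjusted p = 0.236, adjusted p = 0.909 by edgeR) that was 0.22 without WT PBS replicate 3, the mouse at 1308 CPM. Ferritin has processed copies in the mouse genome, and Ftl1-ps1 held 0.244% to 1.42% as many counts as Ftl1, while the 4 other copies counted held at most 0.0700% of their parent gene, so how reads were shared between copies is uncertain.

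**Figure D4:**
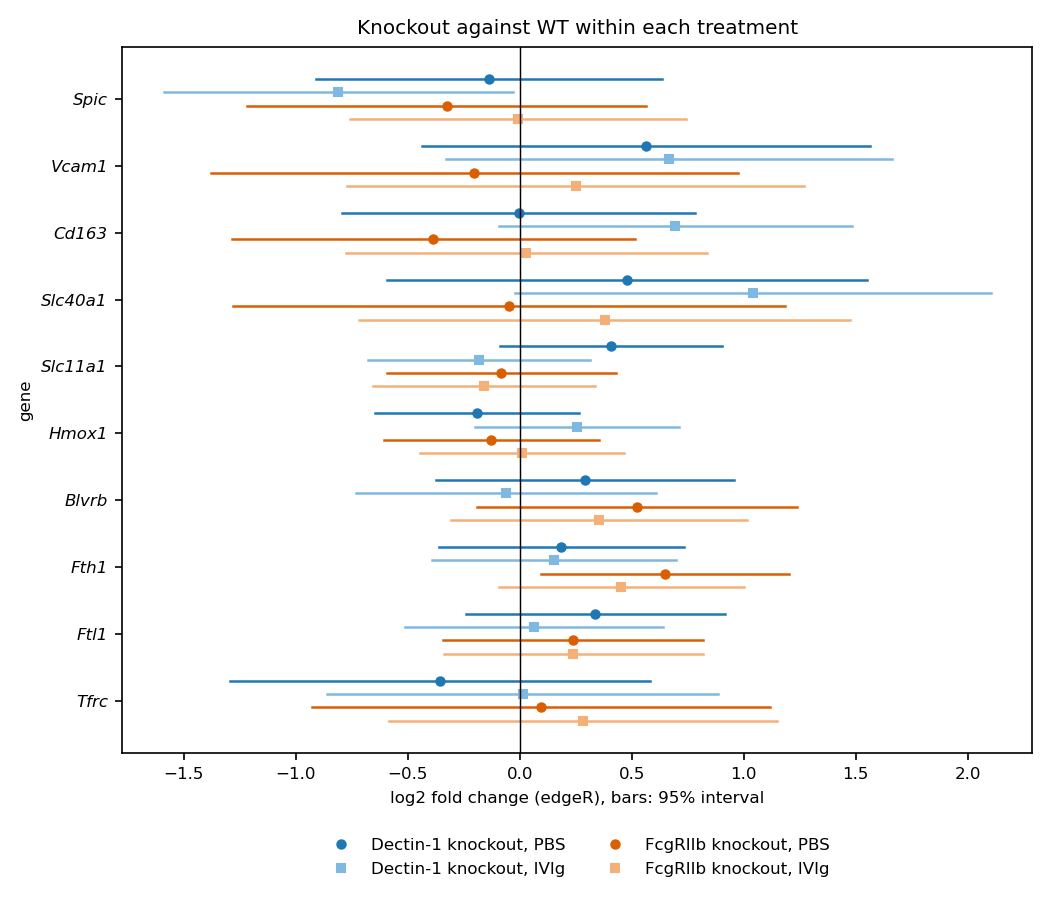
Log2 fold change of each gene for each knockout against WT within each treatment, as the edgeR estimate (points) with its 95% interval (bars), unadjusted for the number of genes. The intervals of Fth1 (FcgRIIb knockout, PBS) and Spic (Dectin-1 knockout, IVIg) leave out 0, at unadjusted p of 0.0238 and 0.0426.

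Both ferritin chains and Blvrb moved with a property of the whole library. For each library, the deviation of 5281 abundant genes from their mean over the libraries was ranked against deposited exon length, and the Spearman coefficient is called here the length tilt: negative where long genes are low. It ran from -0.65 in FcgRIIb knockout PBS replicate 3 and FcgRIIb knockout IVIg replicate 1 to 0.58 in WT IVIg replicate 1. Over the 17 deep libraries the tilt and the log2 CPM had a Pearson r of -0.87 for Fth1, -0.90 for Ftl1 and -0.91 for Blvrb, with Spearman rho of -0.81, -0.87 and -0.93. The Benjamini-Hochberg adjusted permutation p over the 10 genes was 3.33e-05 for each r, from the smallest p that 100000 permutations give, and at most 0.0004 for each rho. Without the 2 libraries farthest from the median tilt r was -0.79, -0.84 and -0.87, and for deviations from group means it was -0.91, -0.92 and -0.90. For the other 7 genes the adjusted p was 0.0816 or higher. The share of all tested genes that follow the tilt this closely was not counted. The relation is therefore not shown to be particular to Fth1, Ftl1 and Blvrb.

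The tilt also differed between the groups of the Fth1 comparison. It was 0.25, 0.36 and 0.54 in WT PBS mice and 0.14, 0.0034 and -0.65 in FcgRIIb knockout PBS mice. After removal of each library's trend on deposited exon length the fold change of Fth1 was 0.67, but on the length of the first-numbered GENCODE transcript, a choice made after the data were seen, it was 0.27 ± 0.21 (unadjusted p = 0.208, adjusted p = 0.715 by edgeR). The same removal took Blvrb from 0.52 to 0.43 on deposited length and 0.21 on that of the first-numbered transcript, and the Ftl1 difference between Dectin-1 knockout and WT mice from 0.34 to 0.16 on deposited length and 0.17 on that of the first-numbered transcript. In the groups of the Fth1 comparison the summed level of 11 B cell and plasma cell markers was 671 to 715 CPM in WT PBS mice. In FcgRIIb knockout PBS mice it was 1145, 2585 and 1381 CPM, the 2585 CPM from the shallow library. The summed level of 19 erythroid markers was 5.73 to 11.7 CPM in WT PBS mice. In FcgRIIb knockout PBS mice it was 12.3, 25.2 and 14.4 CPM, the 25.2 CPM again from the shallow library. Of these markers Rhag was at 0 in all 17 deep libraries. The part of these cells in the Fth1 values was not tested.

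Of the 45 pairs among the 10 genes, 4 were related across the 17 deep libraries by both coefficients. Vcam1 and Slc40a1 had r = 0.87 and rho = 0.88 (permutation p = 1e-05 for each, the smallest 100000 permutations can give, adjusted p = 0.00015 and 0.00045 over the 45 pairs). The relation was r = 0.83 without the 2 libraries farthest from the median of Vcam1 and 0.85 in deviations from group means, so mice of 1 group that were high in one gene were high in the other. The 3 remaining pairs were those of Fth1, Ftl1 and Blvrb: r was 0.87 for Fth1 and Ftl1, 0.91 for Fth1 and Blvrb and 0.86 for Ftl1 and Blvrb, with rho of 0.73, 0.83 and 0.82 and adjusted permutation p between 0.00015 and 0.0165. Without the 2 farthest libraries these r were 0.75, 0.84 and 0.76. Slc40a1 and Cd163 had r = 0.65 (adjusted permutation p = 0.0407) but rho = 0.57 (adjusted permutation p = 0.158). Their r was 0.57 in deviations from group means. It fell to 0.27 without the 2 libraries farthest from the median of Slc40a1, so its size depends on those 2. All values of a library share its depth, composition and length tilt, and Fth1, Ftl1 and Blvrb each followed the tilt as given above. The part of the tilt in their pairs was not tested. The share of all gene pairs related this closely was not counted.

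**Figure D5:**
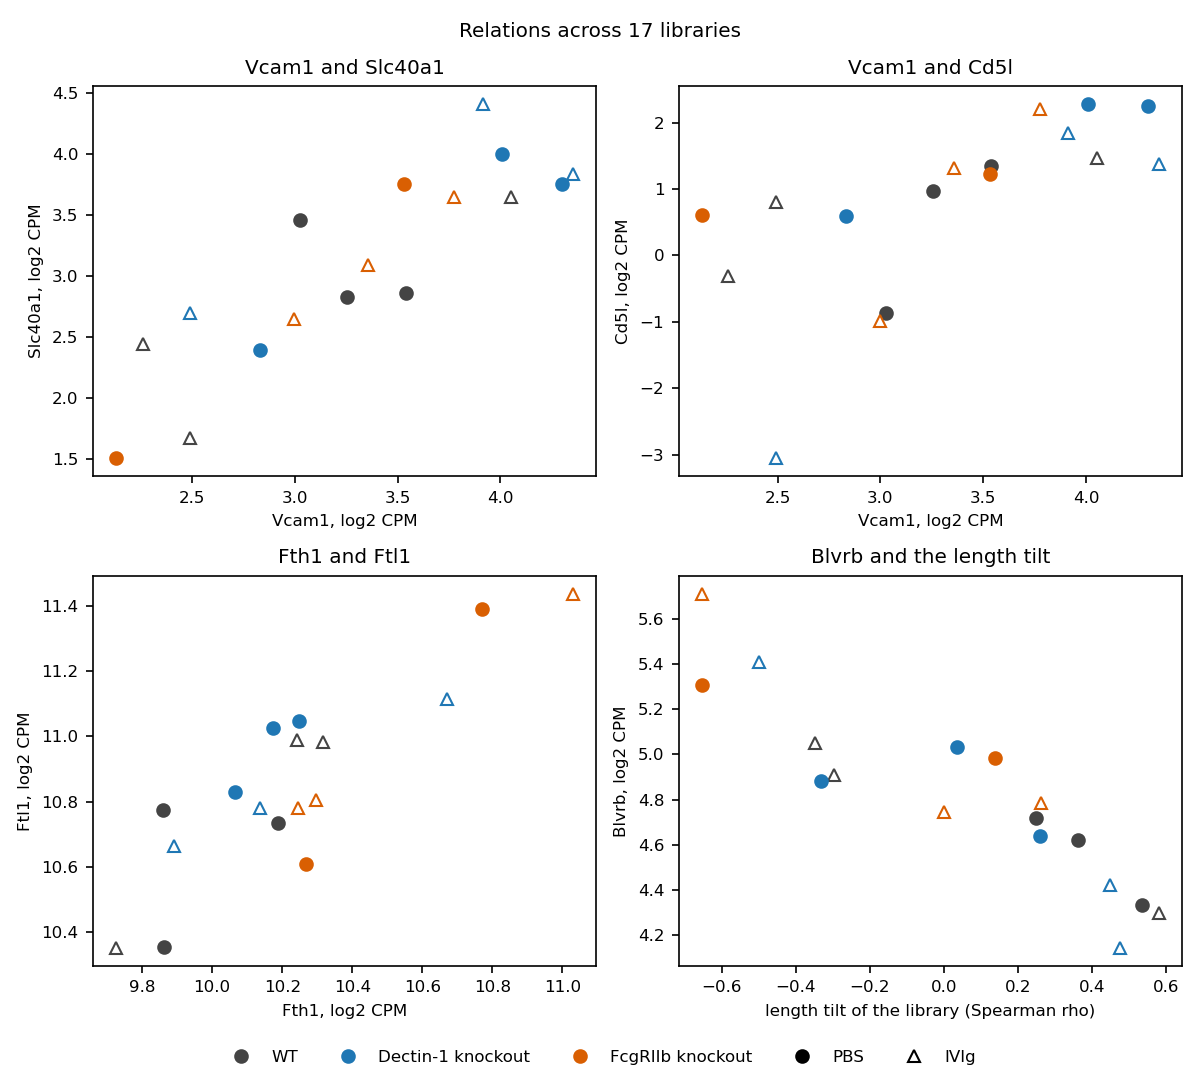
Log2 CPM of gene pairs, and Blvrb against the length tilt, in the 17 deep libraries: colour is genotype, filled circles are PBS and open triangles IVIg. Vcam1 rises with Slc40a1 and with Cd5l across libraries of every genotype, Fth1 rises with Ftl1, and Blvrb falls as the tilt rises.

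The genes most like Vcam1 across these libraries included others of the macrophage program. By Spearman rho over 17 libraries and 12718 candidate genes, they were Slc40a1, Cd5l (0.85), the collagen receptor Ddr1 (0.83), the phagocytic receptor Axl (0.82) and the complement gene C1qc (0.82). For Slc40a1 they were Vcam1, Ttpal (0.81), Igf1 (0.79), Casp2 (0.78) and C1qc (0.78). Of the 22 other red pulp macrophage genes, rho was 0.5 or more with Vcam1 for 8, with Slc40a1 for 9, and with Spic, Cd163 and Hmox1 for 0. Of the 12718 candidate genes, 3.56% reached that rho with Vcam1, 2.66% with Slc40a1, 2.32% with Spic, 2.93% with Cd163 and 3% with Hmox1. Hpgd, among the most abundant of the 22, ran the other way, with rho of -0.61 with Vcam1 and -0.62 with Slc40a1. The summed level of 10 endothelial and stromal markers, cells that also carry Vcam1, was 15.6 to 53.5 CPM, and their part in the relation was not tested. Spic was most like Carm1 (0.86), Lmbr1l (0.83), Slc17a9 (0.82), Gm16973 (0.75) and Zfp90 (0.75).

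The other genes had other neighbours. Ftl1 was most like Gm10252 (0.99), the ribosomal protein gene Rpl10 (0.98), Taldo1 (0.98), Plac8 (0.97) and Tmsb4x (0.97). Fth1 was most like Ldha (0.94), H2-DMa (0.92), Rps3 (0.91), Atox1 (0.91) and Tuba1b (0.91), and Blvrb like Eif5a (0.96), Eif3i (0.95), Rack1 (0.95), Ppib (0.95) and Selenow (0.95). Slc11a1 was most like Cdkn2aipnl (0.87), Hmox1 like Arl3 (0.83), Cd163 like Mir6340 (0.82) and Tfrc like Zbtb46 (0.75). These are ranks among many genes on 17 libraries and carry no test.

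Few genes of the wider pathways were called. Of 22 other red pulp macrophage genes, 6 marginal zone macrophage genes, 18 tested genes of iron uptake, storage and export, 8 of iron-responsive control and 17 of the NRF2 and BACH1 axis, which govern Hmox1 and ferritin transcription, 0 were called in any of the 11 comparisons. Of 13 tested genes of heme and haemoglobin handling, 1 was called: Hebp1, which encodes a heme-binding protein, was higher in Dectin-1 knockout than in WT mice by 4.61 ± 0.37 under PBS (log2, adjusted p = 5.10e-07 by edgeR) and 4.85 ± 0.38 under IVIg (adjusted p = 2.56e-07). It lay between 64.1 and 110 CPM in the 6 Dectin-1 knockout mice and at 5.86 CPM or less in the other 12. Hebp1 lies on chromosome 6, 5.66 Mb from Clec7a, and the part of that position was not tested.

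Values with the smallest unadjusted p in these lists are given as measurements. Under IVIg, the iron-binding neutrophil proteins Ltf and Lcn2 had log2 fold changes of 6.37 ± 1.27 (adjusted p = 0.1005) and 3.73 ± 0.84 (adjusted p = 0.183) in Dectin-1 knockout against WT mice by edgeR, beside the neutrophil markers given above, of which Ltf is one. Under PBS, FcgRIIb knockout against WT mice gave -1.23 ± 0.42 for the mitochondrial iron importer Slc25a37 and 0.63 ± 0.27 for Hfe, the haemochromatosis gene, with adjusted p of 0.503 and 0.516 by edgeR. In WT mice, IVIg against PBS gave 1.09 ± 0.24 for Pparg and -1.18 ± 0.29 for Maf, both transcription factors of macrophages, and 1.25 ± 0.43 for the scavenger receptor Cd36, each with an adjusted p of 1 by edgeR. For Hif1a the same comparison gave -0.56 ± 0.25 and for the heme-sensing repressor Bach1 -0.31 ± 0.22, also with an adjusted p of 1 by edgeR. There, 13 of 14 non-classical monocyte markers were higher and 1 lower, beside 51.1% of all genes higher. An unadjusted p under 0.05 by edgeR was reached by 7, all higher, beside 2.51% of all genes. Their summed level was 9005 to 11108 CPM with IVIg and 6174 to 7897 CPM with PBS. The part of non-classical monocytes in the values of Pparg, Maf and Cd36 was not tested.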

How the data were processed

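The authors deposited raw counts of reads per gene, which the file headers trace to featureCounts 2.0.2 with the genes of Ensembl release 104. Per the submitters' processing notes, STAR was the aligner and GRCm39 the build. Their edgeR step is not used here. A read was counted for every gene it touched and strand was ignored, as the command in the file header shows, so antisense and overlapping genes share reads. Another 18 count columns fit no sample and were left out. Genes without a symbol (1492, holding 0.125% to 0.450% of a library) were kept in the totals.

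The deposited counts were filtered with filterByExpr and TMM-scaled. One model over 18 libraries, with 12 residual degrees of freedom, was then fitted with edgeR 4.0.16 under R 4.3.3 and tested by quasi-likelihood (not the legacy fit). CPM uses TMM-scaled sizes, log2 CPM a prior count of 2, and TPM the deposited exon lengths. Relations used the 17 libraries other than the shallow one (numpy 2.4.6, Python 3.11.15). The test was run on simulated data first.

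The genes, the lists and the rules were chosen with earlier results of these data known. Single fold changes are printed for each gene's smallest p, for an unadjusted p under 0.1 and for groups that do not overlap. From the 15 lists, called genes and some with the smallest unadjusted p per comparison are named. Across the 11 comparisons the monocyte, non-classical monocyte, erythroid, proliferation, B cell and plasma cell, T and NK cell, endothelial and stromal, and dendritic cell lists held 0 called genes, and the neutrophil list 1. Replicate numbers follow accession order. Only the design text says that the mice are independent, and title codes of unknown meaning recur in 3 pairs of libraries: FcgRIIb knockout PBS replicates 1 and 2, Dectin-1 knockout PBS replicates 2 and 3, and WT IVIg replicate 3 with FcgRIIb knockout PBS replicate 3. Counts of every pair of libraries differed beyond counting error (lowest chi-square over its degrees of freedom 30.8). That check finds a library counted again and cannot show that libraries sharing a code came from different mice. Alternatives were DESeq2 1.42.0, limma 3.58.1 voom with quality weights, RLE scaling, testing without a filter or only genes with 1 CPM in 3 libraries, the legacy fit, own groups only, no immunoglobulin, haemoglobin or mitochondrial genes, removal of the length trend (4-df spline, set by genes averaging 5 log2 CPM or more), the same with transcript lengths (added after the data were seen, 98.8% of tested genes matched), each library left out, and the most alike WT pair left out.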

Additional observations from a re-analysis of the deposited data

How the results depend on the processing

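In all 11 comparisons 0 of the 10 genes were called under each of the 29 alternatives, and the smallest adjusted p was 0.118. The direction of most differences was less settled: 67 of the 110 tests changed sign in at least 1 alternative (220 of 3190 values). The 12 fold changes printed singly changed sign in none. They were picked for a small p or for groups without overlap, which itself favours a stable sign. Counts over all genes moved more. FcgRIIb knockout against WT under PBS had 0 called genes by edgeR, 208 by DESeq2, 0 by limma voom and up to 40 with 1 library left out. IVIg in FcgRIIb knockout mice had 0 by edgeR and 31 by DESeq2, and Dectin-1 knockout against WT under IVIg had 9 by edgeR, 19 by DESeq2, and 6 to 28 with 1 library left out. The cause was not tested. The most alike pair of libraries was WT PBS replicate 3 and WT IVIg replicate 1 (Spearman rho 0.988), which come from different treatments. Without this pair, Spic and Vcam1 in Dectin-1 knockout against WT mice under IVIg gave -0.49 and 0.40. In that comparison limma voom gave 1.06 for Vcam1 and 1.72 for Slc40a1. The shallow library limits Tfrc, Cd163 and Slc40a1, which it counted 0, 1 and 3 times. No paired analysis was possible because the replicate numbers follow accession order, and the codes that recur in titles are unexplained and link only 1 library of WT IVIg with 1 of FcgRIIb knockout PBS across groups.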
